A study of Mus musculus with 12 samples.

Results

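The cytosolic ribosomal protein genes were examined in livers of ob/ob mice with and without ethionine. Members were the protein-coding genes whose symbol is Rpl or Rps with a number (paralogs such as Rps27l included), plus Rplp0, Rplp1, Rplp2 and Rpsa, that had at least 10 counts in at least 6 of 12 libraries. The symbols of 89 genes matched, of which 6 were annotated as pseudogenes and 3 (Rpl3l, Rpl10l and Rpl39l) were under the count minimum. This left 80 members, 32 of the small and 48 of the large ribosomal subunit, of 56205 genes in the table. All 80 had at least 10 counts in all 12 libraries and passed the low-count filter, so no member was tested through 1 group alone.

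All 12 mice were ob/ob (B6.Cg-Lep ob/J), which lack leptin and become obese with a fatty liver. The 6 FLO mice received standard chow and the 6 fibrotic mice received ethionine besides for 2 weeks per the series' design text, the S-ethyl analogue of methionine, whose adenosyl form traps ATP in hepatocytes. The labels disagree on the treatment, naming 0.165% DL ethionine in drinking water in one field and an injection of 0.15% in another, and give no age. The study's methods place ethionine in the drinking water and give a shorter time than the design text, so the duration is uncertain. Per the same methods, only males were used for ob/ob experiments, and treatment began in young adults. Fibrotic is used here only as the group name in the sample titles. For ob/ob mice given ethionine, the study saw neither Col1a1 nor Zfp469 change, and describes steatosis and inflammation. Each library came from poly(A)-selected RNA of whole liver. The values are raw counts per gene, compared here as CPM, in which a library's TMM-scaled counts are set to a common total.

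A ribosome holds a single copy of nearly every ribosomal protein, and cells hold the supply of these proteins level with each other and with ribosomal RNA. Their mRNAs are short, abundant and begin with a tract of pyrimidines (the 5′ TOP motif), through which TOR signalling and Larp1 set their translation. The same genes have left many retrotransposed copies in the mouse genome, some nearly identical in sequence to the parent gene. When ribosome assembly fails, free Rpl5 and Rpl11, which carry 5S rRNA, bind Mdm2 and stabilize p53.

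Total counts ranged from 17815568 to 24814263 per library. FLO replicate 3 stood apart in its sex-linked genes, with 3773 counts of Xist against at most 4 in the other 11 libraries. It had 4 counts of Ddx3y, a gene of the Y chromosome, against 556 to 977 in the other 11. This is the pattern of a female and conflicts with the methods, which state that only males were used. Mitochondrial genes took 4.93% to 7.88% of a fibrotic library and 7.30% to 10.22% of a FLO library. Hepatocyte markers (10 of 10 present, none at 0) summed to 56467 to 89440 CPM in fibrotic and 79473 to 92263 CPM in FLO libraries. Of these 10, 2 were called higher (Cps1 and Fgb) and 2 lower (Apoa1 and Serpina1a), against 15.9% and 14% of all genes. Of 8 Kupffer cell and macrophage markers, 7 were called higher in fibrotic livers, where 15.9% of all genes were called higher. Their sum ranged from 293 to 611 CPM against 240 to 268 CPM. Of 5 endothelial markers, Kdr alone was called, as lower, where 14% of all genes were called lower. Endothelial markers summed to 99.9 to 136 CPM against 140 to 163 CPM, without overlap. Cholangiocyte markers summed to 80.6 to 274 CPM against 47.1 to 87.9 CPM, with overlap. Of 6 such markers, 5 were tested and 3 (Epcam, Sox9 and Spp1) were called higher, against 15.9% of all genes. Of 6 stellate cell markers, Lrat alone was called, as higher, against 15.9% of all genes. Stellate cell markers summed to 193 to 320 CPM against 174 to 264 CPM, with overlap. No marker of these lists was at 0 in all libraries. In whole-liver RNA, fewer cells of a type and less RNA per cell cannot be told apart, and the part of these cell types in the results below was not tested.

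Because TOP mRNAs begin with pyrimidines, the sequence near the annotated start is shown for 6 members whose counts differed most between groups. The sequences are from RefSeq (GRCm38.p6), 30 bases each, 5′ to 3′ on the gene's strand, with the longest unbroken run of C and T within 50 bases of a RefSeq start in capitals (the first of them where runs tie, as in Rps27l, and the start with the longest run where a gene has several).
Rpl5, chr5:107900497-107900526, plus strand: gcctacagccaCTCTTTCTCacgtcgcttg
Rpl27a, chr7:109519186-109519215, plus strand: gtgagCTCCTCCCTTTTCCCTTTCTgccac
Rpl41, chr10:128549119-128549148, minus strand: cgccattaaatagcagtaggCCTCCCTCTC
Rps27l, chr9:66946053-66946082, plus strand: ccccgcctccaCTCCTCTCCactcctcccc
Rpl36a, chrX:134585672-134585701, plus strand: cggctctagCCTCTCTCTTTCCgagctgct
Rpl7a, chr2:26910788-26910817, plus strand: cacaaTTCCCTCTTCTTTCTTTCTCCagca
Of the 60 members with a RefSeq entry, 50 (83.3%) held a run of at least 8 pyrimidines in this window, against 39.3% of 27025 genes with an entry. The marked runs are not shown to be the tract that begins the mRNA. Counting the RefSeq start as base 1, they begin at base -20 in Rpl5 and -22 in Rps27l, wholly before the start, at -4 in Rpl27a and -14 in Rpl7a, across it, and at 28 in Rpl36a and 41 in Rpl41, past it. The median longest run was 10.5 bases in members and 7 bases in all genes. The shown members fell on both sides of the comparison: Rpl5, Rpl27a, Rpl41 and Rps27l had more counts in fibrotic livers, and Rpl36a and Rpl7a had fewer.

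Taken as a whole, the family held a like share of the liver's counts in both groups. The 80 members took 1.02 ± 0.12% of all counts in the 6 fibrotic livers and 1.01 ± 0.074% in the 6 FLO livers (mean ± SD). The fibrotic libraries spanned 0.896% to 1.23% and the FLO libraries 0.943% to 1.11%, so the groups overlapped, and the highest and the lowest library were both fibrotic. After TMM scaling the summed level of the members came to 9599 ± 1242 CPM in the 6 fibrotic livers against 10736 ± 803 CPM in the 6 FLO livers (mean ± SD), again with overlap. Fibrotic replicate 4 was lowest at 7896 CPM, and FLO replicate 5 was highest at 12020 CPM.

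**Figure D1:**
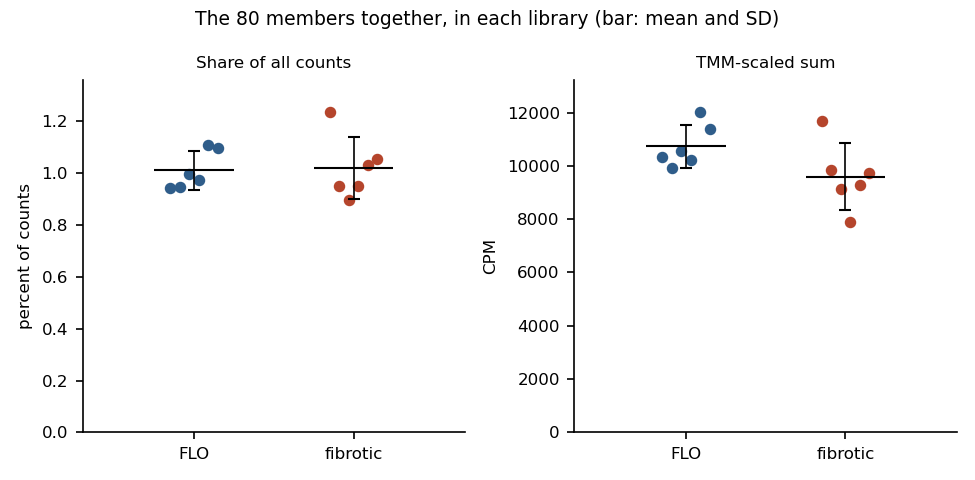
Level of the 80 ribosomal protein genes together in each library (n = 6 per group), as their percent of all counts on the left and as their TMM-scaled sum in CPM on the right. Points are libraries and bars the mean and SD. Shares average 1.02% in fibrotic and 1.01% in FLO libraries, and the groups overlap on both scales.

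Gene by gene, most members were slightly lower in fibrotic livers on the TMM scale. The median log2 fold change (fibrotic minus FLO) was -0.17 over the 80 members and 0.03 over the 13416 genes tested. Over the 3971 tested genes with a high mean level it was -0.04. A negative value was found for 59 members (73.8%), against 48.3% of all genes tested. Without fibrotic replicate 4 the member median was -0.11. With total counts as library size, the member median was 0.01 and the median of all genes 0.20, so the members were lower than the median gene on either scale, but below 0 on the TMM scale only. TMM called 2139 genes higher and 1873 lower, and total counts 3137 higher and 1233 lower.

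Single members passed the thresholds in both directions. By edgeR's quasi-likelihood test (adjusted p, FDR, of 0.01 or less and an absolute log2 fold change over 0.5), 8 of 80 members (10%) were called, against 29.9% of all genes tested. Of these, 4 were higher (Rpl5, Rps27l, Rpl27a and Rpl41), where 15.9% of all genes were called higher. The other 4 were lower (Rpl36a, Rpl7a, Rps20 and Rpl7), where 14% of all genes were. Just inside the fold threshold were Rpl7 at -0.53, Rps20 at -0.54 and Rpl41 at 0.55. Just outside were Rpl24 at -0.49 and Rps3a1 at -0.48. At an adjusted p of 0.05 with any fold change, 4 members were higher and 27 lower, against 27.3% and 24.8% of all genes. The groups had no value in common for 3 members that were higher and 11 that were lower, against 15.3% and 15.1% of all genes. Calls of lower members fell to 2 without fibrotic replicate 4 or FLO replicate 5, where Rpl7 and Rps20 came under the fold threshold, as they did with length and GC offsets, and to 1 with total counts as library size. They rose to 7 without fibrotic replicate 1, where Rpl41 was no longer called higher. On the TMM scale, the share of members called lower at the looser threshold (33.8%) was thus above the background. The shares called at the stricter threshold or without overlap were below or near it. No looser count is given here for total counts as library size, where the member median was 0.01.

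Each member was then set against the family by scaling libraries to the members alone, which asks whether a gene moved apart from the other ribosomal protein genes. The same 4 members were higher than the family, where 22.2% of all genes were called, and 1 member, Rpl36a, was lower, where 8.64% of all genes were. With length and GC offsets the count was 4 higher and 0 lower, and Rpl36a, at -0.50 (SE 0.12, adjusted p = 0.00181), just missed the fold threshold. Scaling to the members moved the median of all genes to 0.21 and the calls to 2985 higher and 1159 lower. Rpl7a (-0.42), Rps20 (-0.37) and Rpl7 (-0.36) kept negative values against the family without passing the fold threshold.

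Many members share their sequence with copies elsewhere in the genome, and how reads were divided between a gene and its copies decides its count. A search of GENCODE M21 transcripts found 1035 copies that matched at least 50% of a member's coding sequence at 90% identity or more, of which 427 had a count and 33 had over 1000. Of the 1035, 1012 were annotated as pseudogenes. The others included protein-coding genes with names of their own, such as Gins1 (matched to Rpl41) and Wdr89 (matched to Rplp2), whose counts were summed in too. Copies held 14.1% of the joint counts of members and copies. They held under 5% of the joint count for 53 members, and 50% or more for 7, among them Rpl12, Rpl5, Rpl27a, Rpl10, Rps23 and Rpl31. With every copy's counts summed into its member, the median log2 fold change was -0.16, and 2 members were called higher (15.9% of all genes) and 5 lower (14% of all genes). The members that were no longer called were Rpl5 and Rpl27a, and Rpl10 was called in addition. Over the 53 members with few copy counts, the median was -0.16, with 2 called higher (Rps27l and Rpl41) and 1 lower (Rpl7).

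**Figure D2:**
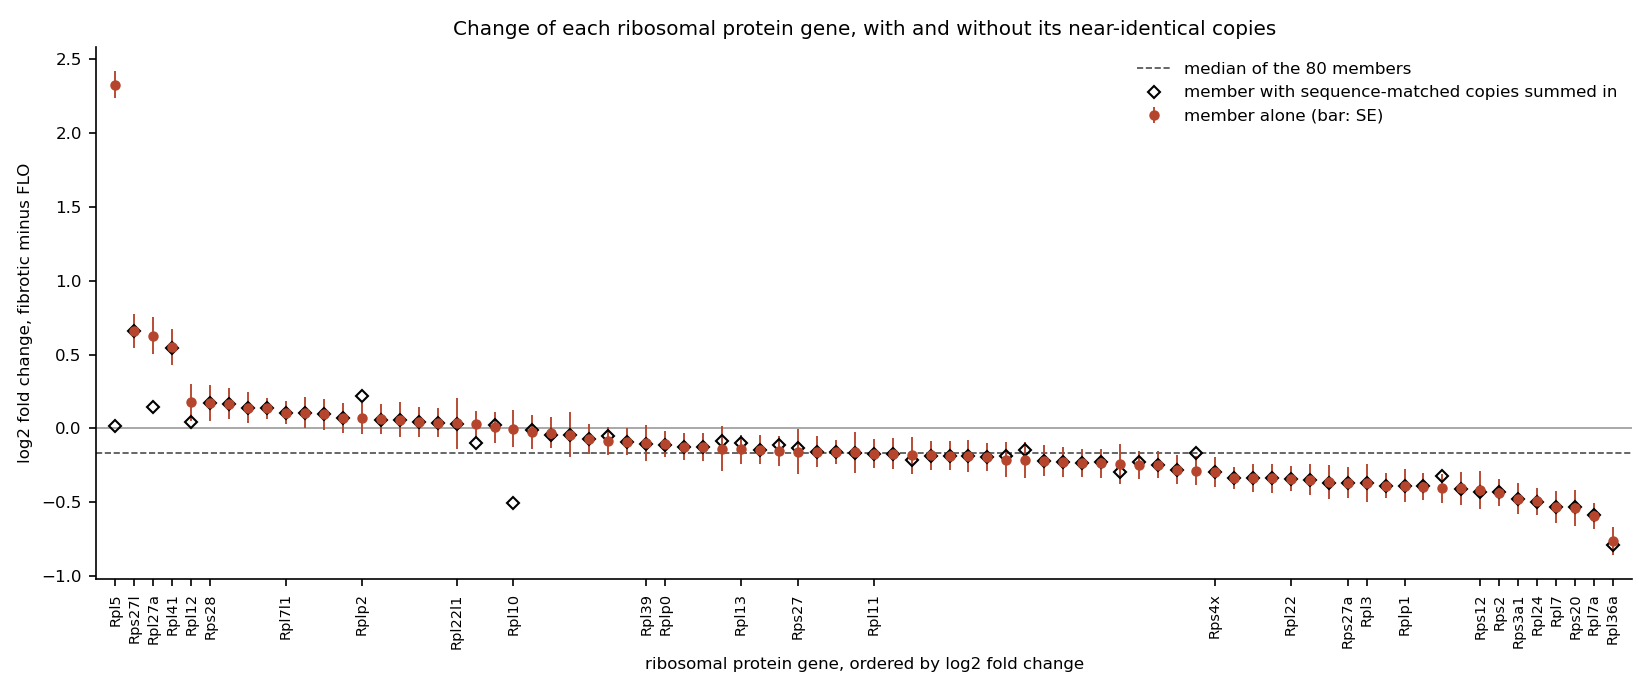
Log2 fold change (fibrotic minus FLO) of each of the 80 members, ordered by value, with the standard error as a bar and the names of most members described in the text. Open diamonds give the value with sequence-matched copies summed in, and the dashed line the member median of -0.17. Filled and open marks lie together for most members and part for Rpl5 (2.33 and 0.01), Rpl27a (0.63 and 0.15) and Rpl10 (-0.00 and -0.50).

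Among large subunit proteins, Rpl5, which binds 5S rRNA with Rpl11, had the highest fold change of the family. Its level was 65.5 to 93.0 CPM in fibrotic libraries (median 73.1) and 14.4 to 16.2 CPM in FLO libraries (median 14.9). The groups lay far apart, and the FLO libraries spanned under 2 CPM. The difference was 2.33 on the log2 scale (SE 0.09, adjusted p = 1.42e-10), or 5.02-fold. Its partner Rpl11 was at -0.17 (SE 0.10, adjusted p = 0.155) and close to the family median.

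The counts of Rpl5's copies moved the other way. Gm15500, a transcribed processed pseudogene on chromosome 7 whose sequence matches the Rpl5 coding sequence at all 894 bases, was at 65.3 ± 7.0 CPM in fibrotic and 113 ± 7.28 CPM in FLO libraries (SD, n = 6 each), a log2 difference of -0.80 (SE 0.08, adjusted p = 1.76e-06). Rpl5-ps1, a processed pseudogene on chromosome 1 that differs from the coding sequence at 10 bases, was at 31.6 ± 4.34 CPM and 42.3 ± 4.74 CPM, a log2 difference of -0.42 (SE 0.10, adjusted p = 0.00315). Rpl5 took 39.6% to 47.2% of what the gene and its copies held together in fibrotic libraries and 7.84% to 9.97% in FLO libraries. The joint level was 174 ± 18.0 CPM in fibrotic and 172 ± 11.5 CPM in FLO libraries, with overlap. Summed, Rpl5 and copies differed by 0.01 on the log2 scale (SE 0.08, adjusted p = 0.896). With Rpl5-ps1 alone summed in, the value was 0.91 (SE 0.09, adjusted p = 1.51e-06).

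A stretch of 60 coding bases (positions 566 to 625 of the Rpl5 coding sequence, chr5:107904755-107904814, plus strand, GRCm38) shows how close the copies are. It was taken where Rpl5 and Rpl5-ps1 differ most, and capitals mark the 3 positions at which Rpl5-ps1 differs from the other sequences.
Rpl5: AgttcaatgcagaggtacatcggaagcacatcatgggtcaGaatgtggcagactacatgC
Gm15500: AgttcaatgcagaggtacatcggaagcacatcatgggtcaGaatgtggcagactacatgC
Rpl5-ps1: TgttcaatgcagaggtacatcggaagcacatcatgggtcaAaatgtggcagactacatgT
A read from this stretch cannot be told apart between Rpl5 and Gm15500 by sequence.

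The annotated Rpl5 transcript is 2045 bases long, and Gm15500 matched 1018 of them without a mismatch, leaving 1027 bases that it did not match. Most of these lie past the coding sequence, in the last exon. Of that exon, 953 bases (chr5:107908053-107909005, GRCm38) also belong to the last exon of Fam69a, a gene on the opposite strand, and none of them are coding in Rpl5. Fam69a was at 17.9 ± 2.83 CPM in fibrotic and 6.08 ± 0.759 CPM in FLO libraries (SD, n = 6 each), a log2 difference of 1.56 (SE 0.12, adjusted p = 9.83e-08), with no overlap between groups. The study's methods describe a stranded mRNA kit, but the sources used here do not state whether the counting used strand or how reads with several matches were divided, so the reads of Rpl5, of Fam69a and of the copies cannot be told apart in these counts. The part of either in the Rpl5 value was not tested.

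**Figure D3:**
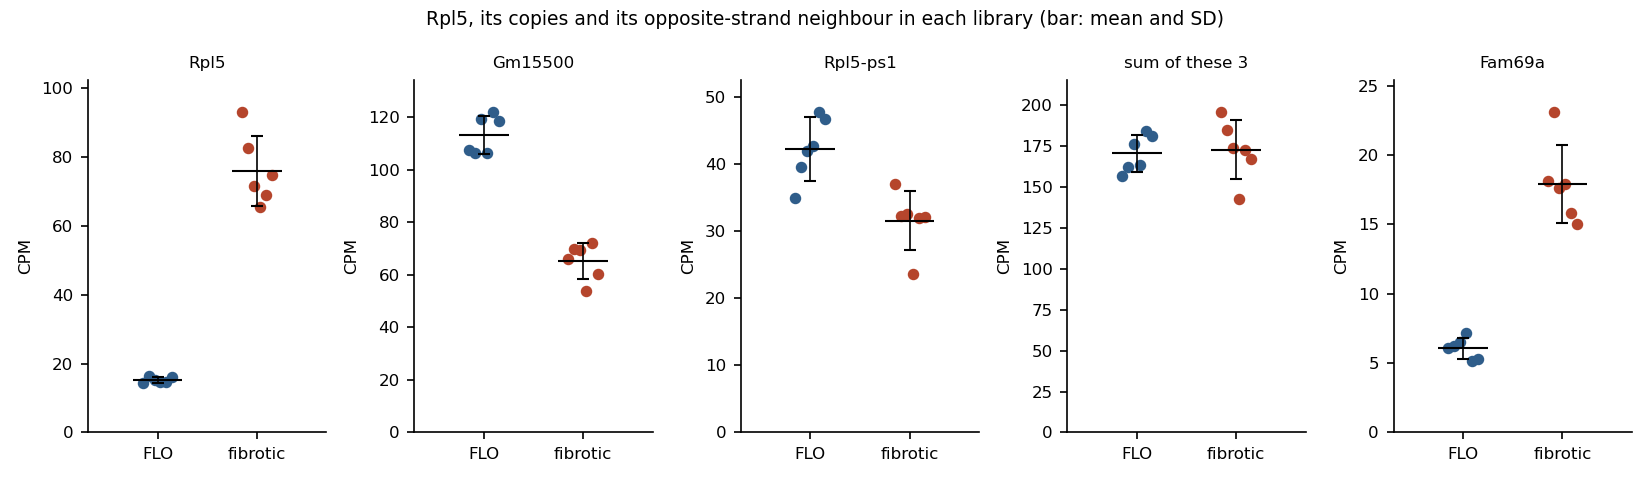
CPM of Rpl5, of its copies Gm15500 and Rpl5-ps1, of the sum of these 3, and of Fam69a, whose last exon overlaps that of Rpl5 on the opposite strand, in each library (n = 6 per group). Bars give the mean and SD, and axes start at 0. Rpl5 lies at 65.5 to 93.0 CPM in fibrotic and 14.4 to 16.2 CPM in FLO libraries, the copies are lower in fibrotic libraries on average, and the groups overlap in the sum.

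Per kilobase of its annotated transcript, Rpl5 was far below the other members in FLO livers, at 7.41 CPM per kb against a member median of 171 CPM per kb, rank 79 of 80. In fibrotic livers it was at 37.2 CPM per kb, rank 75. With copies summed in, the levels were 83.9 and 84.9 CPM per kb in FLO and fibrotic livers.

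Rpl27a, a large subunit protein, was the next such case. It was at 62.0 to 87.7 CPM in fibrotic libraries (median 70.3) and at 40.7 to 65.5 CPM in FLO libraries (median 43.1). The groups overlapped through FLO replicate 5 alone, the other 5 FLO libraries being at or under 45.9 CPM. The log2 difference was 0.63 (SE 0.12, adjusted p = 0.000526). Its copy Gm7536, a processed pseudogene on chromosome 3 identical to Rpl27a where the sequences align, was at 105 ± 17.5 CPM and 114 ± 11.6 CPM, a log2 difference of -0.11 (SE 0.11, adjusted p = 0.413). With copies summed in, Rpl27a was at 0.15 (SE 0.11, adjusted p = 0.271). Of the joint counts Rpl27a took 38.6% to 42.3% in fibrotic and 27.3% to 33.2% in FLO libraries, with no overlap.

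Rpl10, an X-linked protein that completes the large subunit, differed between groups only with its copies summed in. Alone it was at 110 to 149 CPM in fibrotic and 85.7 to 153 CPM in FLO libraries, a log2 difference of -0.00 (SE 0.13, adjusted p = 0.990). Rpl10-ps3, on chromosome 9, is identical to the whole Rpl10 coding sequence and was at 173 ± 39.9 CPM in fibrotic and 299 ± 38.5 CPM in FLO libraries, a log2 difference of -0.79 (SE 0.14, adjusted p = 0.000319). Summed, they fell by 0.50 on the log2 scale (SE 0.10, adjusted p = 0.000833). Of the joint counts Rpl10 took 35.2% to 50.3% in fibrotic and 19.0% to 37.4% in FLO libraries. This share was higher in fibrotic libraries on average, as for Rpl5 and Rpl27a, but the groups overlapped. FLO replicate 5 had the lowest level of Rpl10 (85.7 CPM) and the highest of Rpl10-ps3 (366 CPM).

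Rpl12, a large subunit protein of the stalk base, had the highest copy share of the family, with 92.1% of the joint count. It was at 7.91 to 12.6 CPM in fibrotic libraries (median 10.4) and 8.17 to 11.5 CPM in FLO libraries (median 8.96), so the groups overlapped. The log2 difference was 0.18 alone (SE 0.13, adjusted p = 0.252) and 0.04 with copies (SE 0.11, adjusted p = 0.763).

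Rpl41, the smallest ribosomal protein, with a coding sequence of 78 bases, was higher in fibrotic livers with or without copies. Fibrotic libraries held 239 to 344 CPM (median 267) and FLO libraries 166 to 238 CPM (median 176), so that the lowest fibrotic library was just above the highest FLO library. The log2 difference was 0.55 (SE 0.12, adjusted p = 0.00154) and with copies 0.54 (SE 0.12, adjusted p = 0.00162), since copies held 0.68% of its joint count. Of these 381 copy counts, 368 were those of Gins1, a protein-coding gene that matched the coding sequence at 93.6% identity. Without fibrotic replicate 1 it was 0.49 and under the fold threshold. Per kilobase with copies included, Rpl41 (543 CPM per kb), Rplp1 (555), Rps2 (547), Rpl10 (458) and Rpl13 (330 CPM per kb) had the highest levels of the family.

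Rpl36a, an X-linked large subunit protein that contacts the tRNA exit site, was the lowest of the family in fold change. It was at 15.6 to 21.6 CPM in fibrotic (median 18.0) and 27.4 to 34.7 CPM in FLO libraries (median 30.4), with no overlap. It fell by 0.76 on the log2 scale (SE 0.09, adjusted p = 8.69e-06), and by 0.59 against the family (SE 0.09, adjusted p = 9.1e-05). With copies, which held 32.4% of the joint count, the value was -0.79 (SE 0.11). Leaving out any single library, FLO replicate 3 with its Xist counts included, left Rpl36a between -0.82 and -0.71.

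Rpl7a and Rpl7, both large subunit proteins, also fell. Rpl7a was at 131 to 178 CPM in fibrotic (median 158) and 215 to 261 CPM in FLO libraries (median 228), a log2 difference of -0.60 (SE 0.09, adjusted p = 4.81e-05). Rpl7 was at 94.7 to 156 CPM (median 135) and 173 to 218 CPM (median 187), a log2 difference of -0.53 (SE 0.11, adjusted p = 0.000612). For neither gene did the groups overlap. Its paralog Rpl7l1, a minor form thought to act in assembly, was at 0.11 (SE 0.08, adjusted p = 0.259). Of the large subunit members next in order, Rpl24 (-0.49), Rpl6 (-0.40) and Rpl4 (-0.39) did not overlap between groups either and missed the fold threshold, while Rpl35a (-0.41) overlapped.

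The stalk proteins, which recruit elongation factors to the ribosome, were not called. Rplp0 was at -0.10 (SE 0.09, adjusted p = 0.334), Rplp1 at -0.39 (SE 0.11, adjusted p = 0.00941) and Rplp2 at 0.07 (SE 0.11). Rplp1 was below the FLO median in 6 of 6 fibrotic libraries, yet 192 to 298 CPM in fibrotic and 267 to 383 CPM in FLO libraries overlapped. Rpl22 was at -0.34 (SE 0.08, adjusted p = 0.00341) and its paralog Rpl22l1 at 0.03 (SE 0.17, adjusted p = 0.881). Rpl3 was at -0.37 (SE 0.13, adjusted p = 0.0262), while its muscle form Rpl3l had 0 to 46 counts and was not a member.

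Among small subunit proteins, Rps27l, a paralog of Rps27 known as a p53 target, had the highest fold change. It was at 133 to 205 CPM in fibrotic (median 158) and 89.6 to 117 CPM in FLO libraries (median 99.5), with no overlap. The log2 difference was 0.66 (SE 0.11, adjusted p = 0.000169), or 1.58-fold, and 0.83 against the family (SE 0.10). No copy of Rps27l had a count. Rps27 was at 39.9 to 67.3 CPM in fibrotic and 43.7 to 78.3 CPM in FLO libraries, a log2 difference of -0.16 (SE 0.15, adjusted p = 0.402), and the groups overlapped. Rps27l thus took 75.2% to 78.4% of the counts of the pair in fibrotic and 59.9% to 69.8% in FLO libraries.

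The coding sequences of the pair are both 255 bases long and differ at 61 bases (76.1% identity), with no identical run over 11 bases. They are given whole, 5′ to 3′ from the start codon (GENCODE M21, GRCm38, Rps27 on the minus strand at chr3:90212522-90213651 and Rps27l on the plus strand at chr9:66946086-66949516), with the differing bases in capitals.
Rps27: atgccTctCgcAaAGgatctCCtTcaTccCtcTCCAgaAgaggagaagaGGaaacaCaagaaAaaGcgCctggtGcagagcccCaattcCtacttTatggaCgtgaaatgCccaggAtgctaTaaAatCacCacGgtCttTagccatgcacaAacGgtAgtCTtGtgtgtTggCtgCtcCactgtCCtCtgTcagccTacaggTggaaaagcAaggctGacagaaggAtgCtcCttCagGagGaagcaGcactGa
Rps27l: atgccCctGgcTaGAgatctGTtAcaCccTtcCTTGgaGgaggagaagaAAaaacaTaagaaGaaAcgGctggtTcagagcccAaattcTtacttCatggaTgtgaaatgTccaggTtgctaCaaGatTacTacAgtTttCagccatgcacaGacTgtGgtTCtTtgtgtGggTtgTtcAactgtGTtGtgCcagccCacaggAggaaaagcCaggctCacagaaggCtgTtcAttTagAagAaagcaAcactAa
The differing bases are spread along the whole length, in contrast to the pair of Rpl5 and Gm15500 above.

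**Figure D4:**
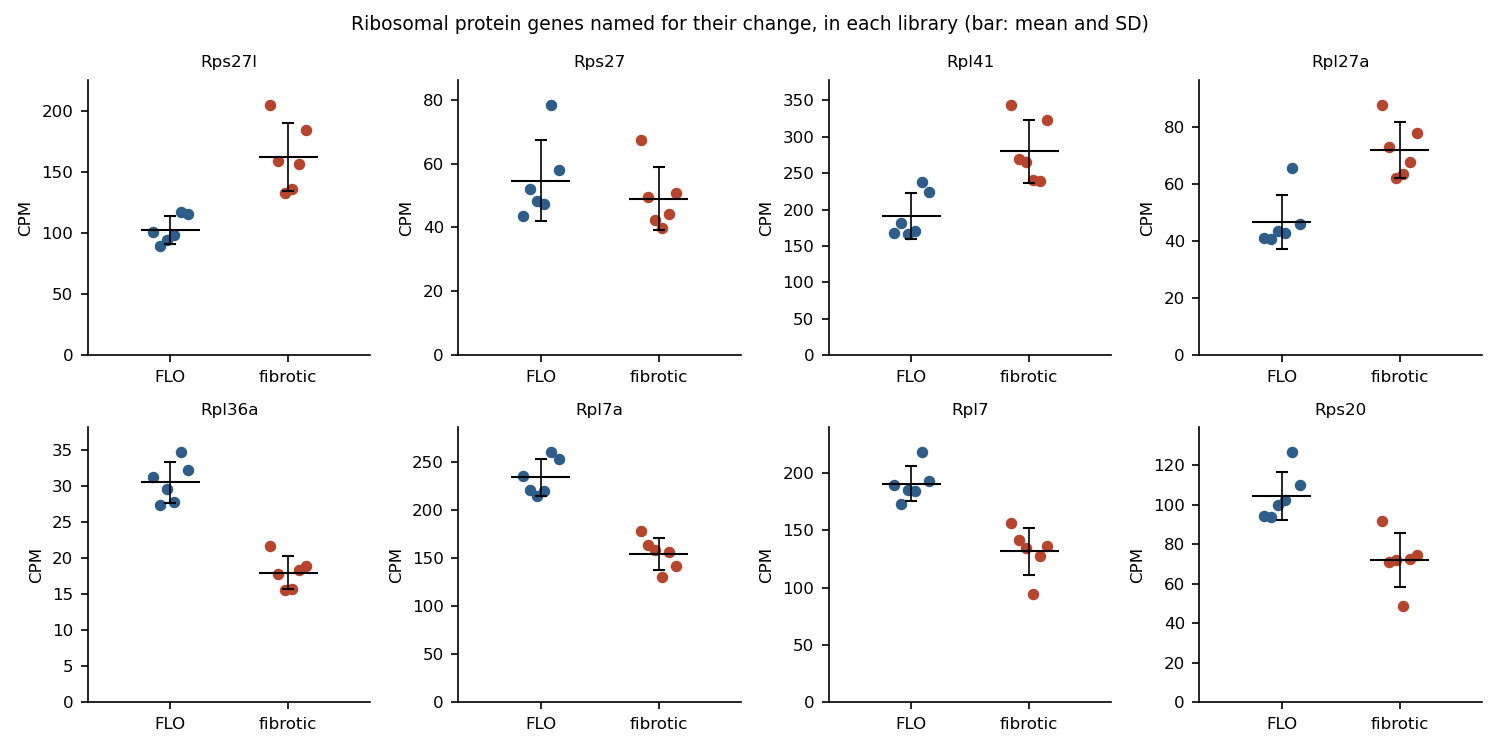
CPM of 8 ribosomal protein genes in each library (n = 6 per group), with the mean and SD as bars and axes from 0. Rps27l and Rpl41 are higher in all fibrotic than in all FLO libraries, Rps27 and Rpl27a overlap between groups, and Rpl36a, Rpl7a, Rpl7 and Rps20 are lower in all fibrotic libraries.

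Rps20, a small subunit protein that also contacts Mdm2, fell in fibrotic livers. It was at 48.7 to 91.8 CPM in fibrotic (median 72.4) and 93.7 to 126 CPM in FLO libraries (median 101), with a narrow gap between groups. The log2 difference was -0.54 (SE 0.12, adjusted p = 0.00187), and -0.53 with copies. Rps3a1 (-0.48), Rps2 (-0.43) and Rps6 (-0.41), the target of the S6 kinases, did not overlap between groups and missed the fold threshold. Rps27a, made as a fusion with ubiquitin, was at -0.37 (SE 0.10, adjusted p = 0.00733). Rps28 was at 0.17 (SE 0.12, adjusted p = 0.260), and the groups overlapped.

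The copies of Rps12, a small subunit protein, differed from library to library within a group. Rps12l1 on chromosome 7 and Rps12-ps3 on chromosome 19 share all 399 bases of the Rps12l1 transcript. Rps12l1 was at 0 in 5 libraries and held 459 to 745 counts in the other 7. Rps12-ps3 was at 0 in 6 libraries and held 126 to 623 counts in the others. In 11 of 12 libraries exactly 1 of the copies had counts, and in FLO replicate 6 both did. Their summed count lay between 408 and 612 in the fibrotic and between 532 and 772 in the FLO group, and which copy held the counts did not follow the groups. Rps12 itself was at -0.42 alone (SE 0.13, adjusted p = 0.0136) and -0.43 with copies (SE 0.13, adjusted p = 0.0106), and took 72.6% to 78.1% of the joint counts in every library.

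**Figure D5:**
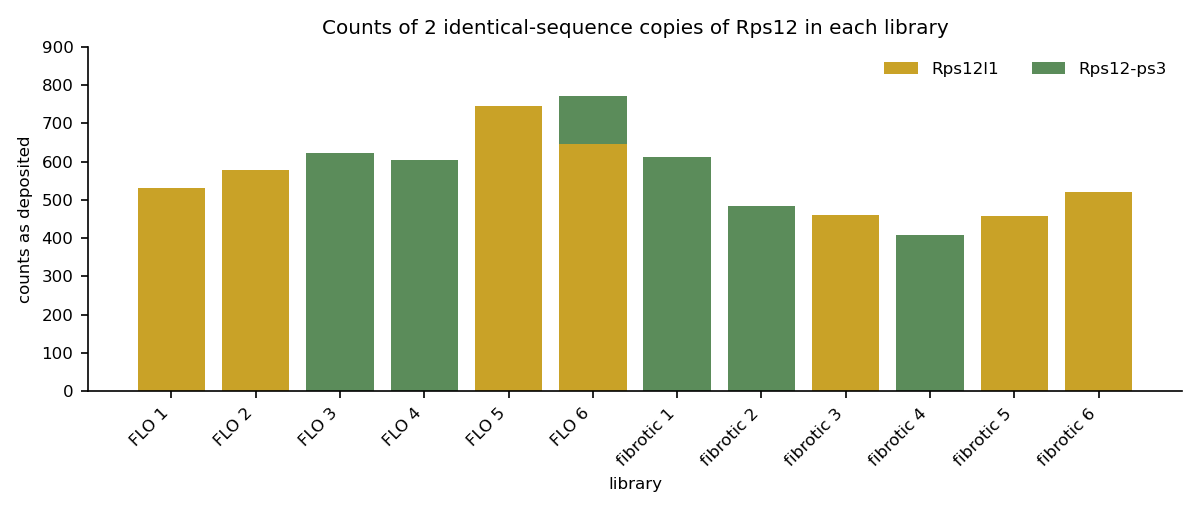
Deposited counts of Rps12l1 and Rps12-ps3, which share 399 identical bases, stacked for each of the 12 libraries. The colour of the bar changes between libraries within a group, while the sum stays between 408 and 772 counts.

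Both subunits had a like median, which was -0.18 in the small subunit, with 1 called higher and 1 lower of 32, and -0.15 in the large subunit, with 3 called higher and 3 lower of 48, against 15.9% and 14% of all genes. Of the 19 genes mutated in Diamond-Blackfan anaemia, the inherited anaemia of faulty ribosomes, Rpl5 alone was called, and their median was -0.17. This call is 5.26% of the list, against 29.9% of all genes called in either direction. With copies summed in, none of the 19 was called, where 15.9% of all genes were called higher and 14% lower. All 4 X-linked members (Rpl10, Rpl36a, Rpl39 and Rps4x) had negative values on the TMM scale, of which those of Rpl10 (-0.00) and Rpl39 (-0.10) were above 0 with total counts as library size. Over the 53 members with few copy counts, log2 fold change and the log2 of coding length had a Pearson r of -0.46 (Spearman rho -0.31), against -0.11 (rho -0.19) over all 80 members. For coding GC percent over the 53, r was 0.15 and rho 0.29, a rho of like size. For mean log2 CPM, r was -0.12 and rho -0.16. The 11 of the 53 with 600 or more coding bases had a median of -0.29 against -0.16 for the 42 shorter ones. All members come from the same libraries, so these are descriptions without a test.

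Genes tied to ribosomal proteins were measured from lists. Other mRNAs with a 5′ TOP tract had a lower median than the family, -0.37 over 16 genes. Of these, 4 were called lower, namely Eef1b2 (-0.83), Npm1 (-0.79), Naca (-0.54) and Eif3e (-0.51), and Hnrnpa1 (0.72) was called higher. The background was 14% of all genes called lower and 15.9% called higher. At the looser threshold 13 of 16 were lower and 1 higher, against 24.8% and 27.3% of all genes. Their summed level was 5351 to 6650 CPM in fibrotic and 7255 to 7643 CPM in FLO libraries, without overlap.

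Genes that build or watch over ribosomes included large changes in both directions. Of 9 chaperones and assembly factors of the 5S particle, Grwd1, the chaperone of Rpl3, rose by 1.59 (SE 0.09, adjusted p = 3.07e-09), and Rrs1, which brings the 5S particle into the large subunit, by 1.40 (SE 0.14, adjusted p = 1.5e-06). Tsr2, the chaperone of Rps26, was called lower at -0.71 and Nop53 at -0.54. Of these 9 genes, 2 were thus called higher and 2 lower, against 15.9% and 14% of all genes. Of 5 genes of the p53 and Mdm2 list, 4 were called higher, against 15.9% of all genes. These were Cdkn1a at 2.54 (SE 0.39), Mdm2 at 1.69 (SE 0.31), Ccng1 at 1.20 (SE 0.19) and Trp53 at 0.72 (SE 0.09). Mdm4 was at -0.44. The list's summed level was 258 to 704 CPM in fibrotic and 109 to 165 CPM in FLO libraries.

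Of 11 genes of TOR and TOP control, Larp1 (0.59), which binds the TOP tract, Eif4ebp1 (0.59) and Rps6ka3 (0.58) were called higher and Eif4ebp2 (-0.80) lower, while Mtor was at -0.19 (SE 0.13, adjusted p = 0.221). Of a list of 12 genes, made of RNA polymerase I, which makes the large ribosomal RNA, its factors and Myc, 3 were called higher (Polr1a at 0.67, Polr1e at 0.74 and Taf1c at 1.05) and none lower, with a median of 0.30. Myc was at 0.51 (SE 0.48, adjusted p = 0.392). For both lists the background was 15.9% of all genes called higher and 14% called lower.

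The mitochondrial ribosomal proteins, which serve the separate ribosome of mitochondria, were the set most like the members in function. Of 77 tested, 23 were called higher and 3 lower, with a median of 0.27, against 4 higher and 4 lower and -0.17 among the 80 cytosolic members, where 15.9% of all genes were called higher and 14% lower. Mrpl43 (1.83), Mrps34 (1.60), Mrpl46 (1.26) and Mrps2 (1.12) were highest, and Mrpl34 (-1.22), Mrpl48 (-0.65) and Mrpl39 (-0.51) were those lower. Their summed level was 2731 to 3346 CPM in fibrotic and 2175 to 2448 CPM in FLO libraries, without overlap. Whether the 2 families differ beyond chance was not tested.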

How the data were processed

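The deposited values are read counts of each Ensembl gene in 12 poly(A) libraries, whole numbers that the authors left without normalization. The submitters' processing notes name bcl2fastq, STAR 2.7.3a and mm10. The study's methods describe a TruSeq Stranded mRNA kit and, for reads aligned to an Ensembl human genome, the exon quantification pipeline with STAR and quantification by PISCES. For these mouse counts, the annotation, the use of strand and the handling of reads with several matches are not given in the sources used here. Groups and replicate numbers came from the sample titles. Replicates of a group differed by more than sampling noise (smallest chi-square per degree of freedom 10.3 over 30 pairs).

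Counts were tested with the edgeR 4.0.16 quasi-likelihood test in R 4.3.3 (robust, TMM, filterByExpr, Benjamini-Hochberg adjustment over 13416 genes), and again with libraries scaled to the members. Coding sequences of GENCODE M21 were matched with blastn at 90% identity over 50% of the coding length. Copies absent from that release were not searched. Levels per kb used the principal transcript. On simulated counts with 13296 genes the comparison recovered 80.8% of 2-fold changes and 98% of 4-fold changes, with 0.56% false calls.

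The members and lists were chosen with earlier results of these data known. Named genes were every called member, the 8 highest and 8 lowest fold changes, Rpl5, Rpl11, the stalk proteins, paralogs with their main members, Rps27a, the 5 most abundant per length, and at most 4 of a list. Some members and related genes that this rule names are not reported here. Exceptions, chosen after their values were seen, were Rpl4, Rpl6, Rpl35a, Rps6, every gene of a list where 5 or fewer were called in a direction, and the copies and neighbour of named members. Alternatives were other scalings, filters, thresholds and tools (DESeq2 1.42.0, limma-voom 3.58.1), a replicate block, length and GC offsets, named pseudogenes summed in, and leaving out each library. Summing sequence-matched copies, total counts as library size and the subset with few copy counts were added after the data were examined.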

Additional observations from a re-analysis of the deposited data

Results flagged for a closer look

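Among 62 sets of 6 libraries examined with Dixon's ratio (limit 0.625), 4 had a library far from the others, where chance gives about 3.1 (1 in 20). FLO replicate 5 was highest for Rpl27a (ratio 0.7478), at 6.04 log2 CPM against 5.52 in the next library. FLO replicate 6 was highest for Rpl12 (ratio 0.6254), at 3.53 against 3.23 log2 CPM. Fibrotic replicate 1 was highest for Rplp0 (ratio 0.677), at 8.24 against 7.90 log2 CPM. Fibrotic replicate 4 was lowest for Rps2 (ratio 0.6881), at 8.32 against 8.64 log2 CPM.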

How the results depend on the processing

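The count of called members was 8 and the family median -0.17. With total counts as library size the count was 5 (4 higher, 1 lower), the median 0.00838, and the values of Rpl11 (0.00242), Rplp0 (0.0776), Rps27 (0.0190), Rpl10 (0.170), Rpl39 (0.0761) and Rpl13 (0.0354) were above 0. At an adjusted p of 0.05 with any fold change the count was 31, and among members with copies under 5% of the joint count it was 3. Against the family, the count of 5 became 21 at the looser threshold, 3 with sequence-matched copies summed in and 4 (none lower) with length and GC offsets. Signs near 0 also turned for Rpl22l1 with limma-voom (-0.0026), for Rpl10 with at least 10 counts in every library (0.00137), limma-voom (0.0167), the replicate block (0.0122) and length and GC offsets (0.0970), and for Rpl39 with the offsets (0.00378). Leaving out 1 library gave 6 to 10 calls, 5 to 5 against the family, a median from -0.24 to -0.11, a share difference from -0.03 to 0.03 percentage points, Rpl22l1 from -0.0406 to 0.167 and Rpl10 from -0.0998 to 0.0505. Of 812 values of 28 named members under alternatives, 752 kept their sign and call.

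The replicate numbers did not pair the samples (correlations of deviations -0.162 to 0.104, 1 of 6 over 0.1, and 0 of 6 best with their own number). With the replicate block, 9 members were called and the family median was -0.17. Division of reads among identical copies limits Rpl5, Rpl27a, Rpl10, Rpl12, Rps23 and Rpl31 most. The scaling sets the sign of the family median, and the table holds no measure of total RNA per cell. All members had counts in every library, so depth limits only the smallest differences. No source says whether the mice of a group were housed or processed apart, so p-values measure the spread between these libraries.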
